A study of Mus musculus with 4 samples.

Results

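Collagen genes were followed through 4 mRNA libraries made from cultures of mouse embryonic stem cells (mESC). Their members were every gene symbol of the form Col, number, a, number in the count tables, which gave 44 of 25239 symbols. They were sorted by the structure of the protein into 11 fibrillar, 6 basement membrane (type IV), 6 beaded filament (type VI), 9 fibril-associated, 3 short-chain network, 4 transmembrane and 2 multiplexin collagens, with 3 remaining. All cells carried the genotype Ogt fl/fl, in which both copies of Ogt, the gene of the O-GlcNAc transferase, can be removed by a recombinase that the labels do not name. The Ogt iKO group held 2 libraries from cells kept with 4-hydroxytamoxifen (4-OHT) for 6 days, and the control group held 2 libraries from cells of the same genotype kept without it for 6 days. Both groups grew on mouse embryonic fibroblasts (MEFs) whose division had been stopped with mitomycin C, in a LIF medium with a serum replacement. Viable cells were sorted away from these feeder cells before RNA extraction, and only the treated cells were gated on yellow fluorescent protein (YFP) too, so that this gate and the treatment cannot be told apart. Cells given 4-OHT with Ogt intact are not described in the labels. Nothing in the labels says whether the replicates were separate cultures, so p-values measure the spread between these samples, which may be technical.

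Collagens are secreted or membrane-bound proteins whose chains wind around each other in a long helix in which glycine recurs at a fixed step. Types I, III and V build the fibrils of connective tissue and are major products of fibroblasts, and type VI forms fine beaded filaments around them. Type IV forms the sheet of the basement membrane, which early embryonic cells lay down as well, and type XVIII is attached to it. Expression of types I, III, V and VI is therefore a usual sign of fibroblasts in a culture on feeder cells, whereas type IV and type XVIII are also made by embryonic cells. The comparison asked which collagens differed between Ogt iKO and control, and whether the 2 treated libraries shared the difference.

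The gene counts summed to between 14668489 and 16504204 per library. Ogt had 437 and 389 counts in Ogt iKO replicates 1 and 2 and 2963 and 3108 in control replicates 1 and 2, in accord with the labels. The defining stem cell markers Pou5f1, Sox2, Nanog and Epcam were detected in every library, and their summed level was 977 and 1084 CPM (counts divided by library size, the sizes scaled by TMM, the trimmed mean of M values) in Ogt iKO and 1853 and 1794 CPM in control. Of the 14 stem cell markers, 13 were called lower in Ogt iKO, against 32.0% of all tested genes. Fibroblast markers were also present in all 4 libraries. The 8 defining ones, Dcn, Lum, Postn, Pdgfra, Pdgfrb, Thy1, Prrx1 and Twist2, summed to 274.5 CPM in Ogt iKO replicate 1, 70.6 in replicate 2, and 153 and 162 in the controls, and none of them was at 0 in any library. Their level in replicate 1 was 3.89 times that in replicate 2 (95% interval 3.64 to 4.16). The labels give CD90.2, the product of Thy1, as the stain that marked the stem cells and CD326, the product of Epcam, as the stain used to leave feeder cells out. Thy1 had 437 and 138 counts in Ogt iKO replicates 1 and 2 and 241 and 240 in the controls, and Epcam had 4794 and 4452 against 5376 and 4704. Read as written, the labels make Thy1 a mark of the sorted stem cells, while it stands here on the fibroblast list, and they do not settle whether the roles of the stains were exchanged. The main results scaled to these markers are therefore also given without Thy1. In RNA pooled from the sorted cells of a library, fewer cells of a type and less RNA per cell cannot be told apart. How many feeder cells passed the sort in each library was not measured here.

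Of the 44 collagens, 33 had enough counts to be tested, 13 were called higher in Ogt iKO and 3 were called lower (edgeR's quasi-likelihood test, adjusted p under 0.05 over 14525 genes). Among all genes tested 33.2% were called higher and 32.0% lower, so 13 of 33 was close to the background share for rises. The median log2 fold change was 0.58 for the tested collagens and 0.02 for all tested genes. The 11 collagens that were not tested had from 0 to 16 counts in any library. Since a gene could also pass the filter through the higher group alone, these counts describe the tested members and not the family.

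**Figure D1:**
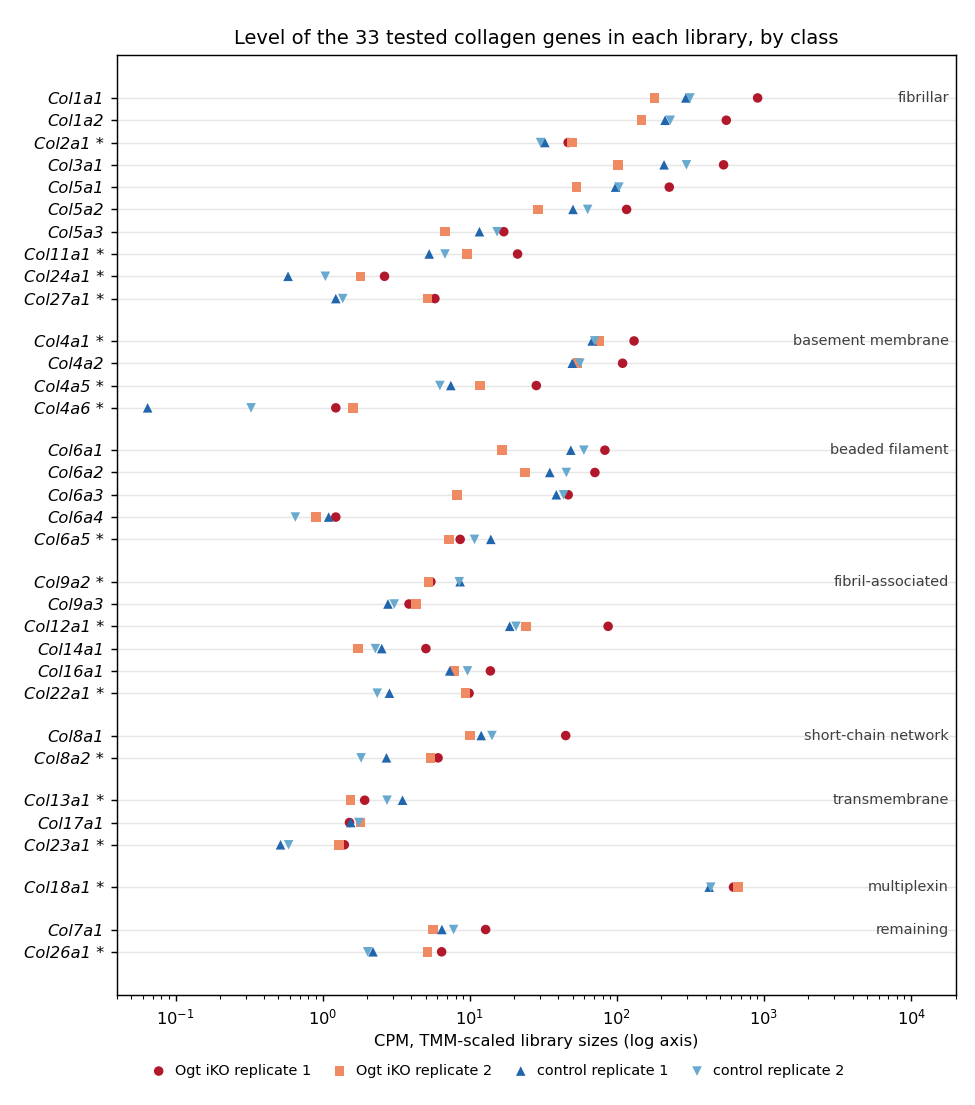
Level of each tested collagen gene in CPM (log axis) in the 2 Ogt iKO and the 2 control libraries, grouped by class, with 1 point per library; an asterisk marks a gene called in the fit of all 4 libraries. For the chains of types I, III and V and for Col6a1 to Col6a3 the circle of Ogt iKO replicate 1 lies to the right of both controls and the square of replicate 2 to their left, whereas for Col18a1, Col2a1, Col22a1 and Col27a1 both treated libraries lie together to the right.

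The median of the collagens rested on 1 treated library. Left without Ogt iKO replicate 1, the fit called 11 collagens higher and 12 lower (all genes 30.3% and 29.9%) with a median log2 fold change of -0.04. Left without Ogt iKO replicate 2, it called 26 higher and 2 lower (all genes 32.1% and 31.8%) with a median of 1.02. The filter was applied anew each time, so the first of these fits tested 34 collagens and the second 37. These fits share both controls, and the lone treated library is assumed to vary as the controls do. Of the 13 collagens called higher with all 4 libraries, 11 were called higher with either treated library left out (27.0% of all genes): Col2a1, Col4a5, Col4a6, Col8a2, Col11a1, Col18a1, Col22a1, Col23a1, Col24a1, Col26a1 and Col27a1. Among these Col4a6 and Col23a1 had under 10 counts in both controls. Of the 3 called lower, Col6a5 and Col9a2 were called lower in both of those fits (27.4% of all genes).

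Summed by class, the fibrillar collagens stood at 2425 CPM in Ogt iKO replicate 1, 583 in replicate 2, 915 in control replicate 1 and 1062 in control replicate 2. Replicate 1 was therefore above both controls and replicate 2 below both. The beaded filament class had the same order, with 210.5, 56.8, 138 and 160 CPM. The basement membrane class summed to 270.0 CPM in Ogt iKO replicate 1, 143 in replicate 2, and 125 and 133 in the controls. Multiplexins, nearly all of them Col18a1, were high in both treated libraries, at 620 and 668 CPM against 424 and 435 CPM. Transmembrane collagens were low throughout, from 4.71 to 5.75 CPM in sum.

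**Figure D2:**
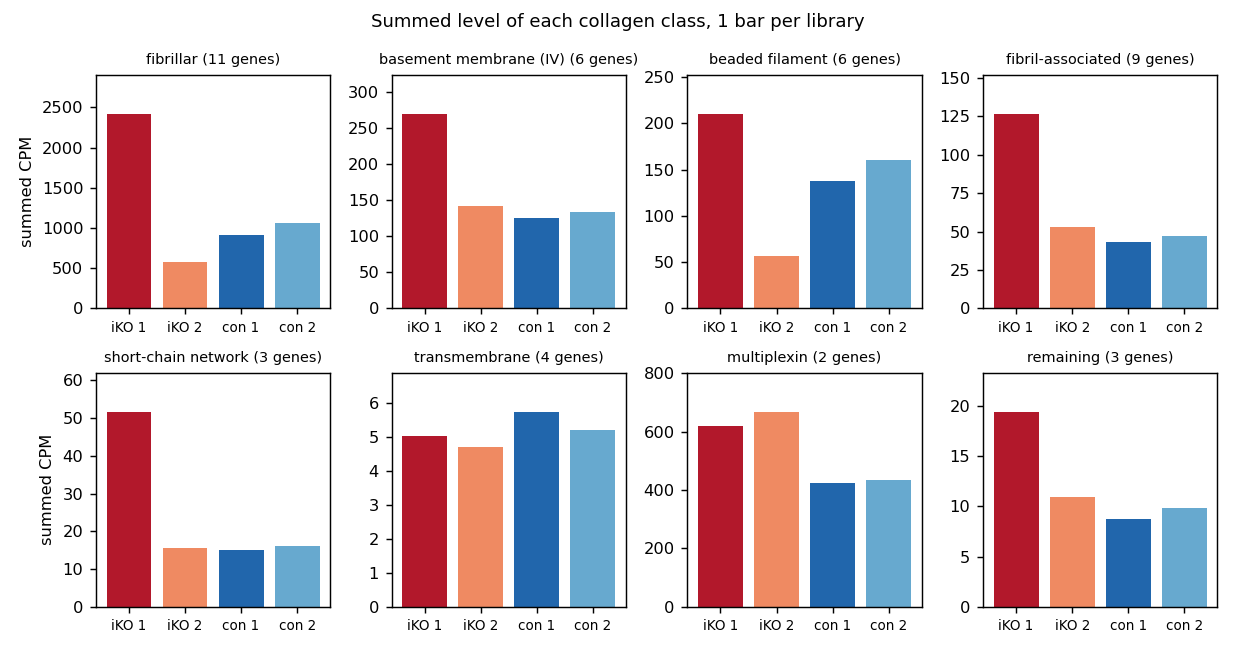
Summed CPM of each collagen class, with 1 bar per library (iKO 1 and iKO 2, Ogt iKO replicates 1 and 2; con 1 and con 2, control replicates 1 and 2) and a separate linear axis from 0 in each panel. The fibrillar and beaded filament bars of Ogt iKO replicate 1 exceed both controls while those of replicate 2 fall short of both, and the multiplexin bars of both treated libraries exceed both controls.

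Type I collagen, the main fibril of skin, tendon and bone, is built from the chains of Col1a1 and Col1a2. Col1a1 lies on chromosome 11 from 94936224 to 94953042 in GRCm38 and had 15453 counts in Ogt iKO replicate 1, 2785 in replicate 2, 4549 in control replicate 1 and 4809 in control replicate 2. In CPM these were 904, 179.5, 294 and 313.5, so replicate 1 was 5.03 times replicate 2 (95% interval 4.84 to 5.24) while the controls differed little. The groups overlapped, and the log2 fold change of 0.84 (adjusted p 0.207 by edgeR, SE 0.545) did not pass the threshold. Without Ogt iKO replicate 1 it was -0.75, and without replicate 2 it was 1.55. Such intervals cover counting error alone, since no molecular identifiers are described, and compare those libraries and not the conditions. Col1a2, on chromosome 6, had 554 and 147 CPM in Ogt iKO and 212 and 230 CPM in control. Its log2 fold change was 0.66 (adjusted p 0.229, SE 0.456), with replicate 1 above and replicate 2 below both controls.

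Type III collagen, a partner of type I in elastic tissues, is encoded by Col3a1 alone. Its level was 531 CPM in Ogt iKO replicate 1, 102 CPM in replicate 2, 209 CPM in control replicate 1 and 297 CPM in control replicate 2. The ratio of the treated libraries, 5.22 (95% interval 4.94 to 5.51), was the largest among the fibrillar genes, and the log2 fold change was 0.32 (adjusted p 0.632, SE 0.562). Type V chains set the width of type I fibrils. Col5a1 had 227 and 53.1 CPM in Ogt iKO and 97.9 and 103 CPM in control. Col5a2, which lies 24.6 kb from Col3a1 on chromosome 1, had 116 and 29.1 CPM in Ogt iKO and 50.3 and 63.2 CPM in control. Col5a3 was lower, at 17.02 and 6.77 CPM in Ogt iKO and 11.6 and 15.3 CPM in control. None of these 4 genes passed the threshold with all libraries, with adjusted p values from 0.4095 to 0.6855 (edgeR), and for each the treated libraries lay on opposite sides of the controls. In the fits without Ogt iKO replicate 1 and without replicate 2, which share their controls, the log2 fold changes were -1.31 and 1.04 for Col3a1, -0.92 and 1.15 for Col5a1, -0.96 and 1.01 for Col5a2, and -0.99 and 0.31 for Col5a3.

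The other fibrillar genes did not follow that order. Col2a1, the chain of the main cartilage collagen, stood at 47.97 ± 1.91 CPM in Ogt iKO versus 31.3 ± 1.499 CPM in control (means ± SD, n = 2 each). Its counts were 797 and 765 in Ogt iKO and 501 and 464 in control, so the groups did not overlap and the treated libraries differed by no more than counting error (ratio 0.945, 95% interval 0.855 to 1.05). Its log2 fold change was 0.61 (adjusted p 2.543e-04 by edgeR, SE 0.0828). Col27a1, a fibrillar collagen of developing cartilage on chromosome 4, had 99 and 80 counts in Ogt iKO versus 19 and 21 in control. It rose from 1.30 ± 0.10 to 5.47 ± 0.448 CPM (means ± SD, n = 2 each), a log2 fold change of 2.07 (adjusted p 1.084e-04, SE 0.238). Col24a1, its minor fibrillar relative, had 45 and 28 counts in Ogt iKO and 9 and 16 in control, with a log2 fold change of 1.45 (adjusted p 0.00864 by edgeR and 0.0662 by DESeq2, SE 0.375), and it was not called without control replicate 1 (adjusted p 0.0693). Col11a1, a chain of the thin cartilage fibrils of type XI, was high in both treated libraries but unequally, with 361 and 148 counts against 82 and 104 in control. Its log2 fold change was 1.35 (adjusted p 0.00733, SE 0.337), and it was not called with a robust estimate of the spread. Col11a2 had 13 and 6 counts in Ogt iKO and 3 and 10 in control and was not tested.

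The fibrillar class thus held genes of both orders, and stretches before the starts of 4 of them are shown to set those of Col3a1 and Col5a1, where the treated libraries parted, beside the ones of Col24a1 and Col27a1, where both were high. Each is the 250 bases before a RefSeq start in GRCm38.p6, 5′ to 3′ on the strand of the gene, and none of these bases lies in an annotated exon. All 4 genes lie on the plus strand, and the windows are chr1:45311288-45311537 for Col3a1, chr2:27886175-27886424 for Col5a1, chr3:145292222-145292471 for Col24a1 and chr4:63215162-63215411 for Col27a1. GENCODE M21 starts Col27a1 upstream of that RefSeq start, at 63214004, so its window lies inside the gene as GENCODE draws it. Capitals mark matches on either strand to any of 3 short motifs. The GC box is spelled GGGCGG in this search. The next motif, bound by other factors, is CCAAT in its letters. The TATA box is spelled TATAAA here.
Col3a1: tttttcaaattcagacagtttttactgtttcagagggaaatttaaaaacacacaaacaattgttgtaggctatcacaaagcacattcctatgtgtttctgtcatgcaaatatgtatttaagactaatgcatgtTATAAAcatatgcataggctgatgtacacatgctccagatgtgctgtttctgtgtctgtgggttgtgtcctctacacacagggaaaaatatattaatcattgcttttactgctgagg
Col5a1: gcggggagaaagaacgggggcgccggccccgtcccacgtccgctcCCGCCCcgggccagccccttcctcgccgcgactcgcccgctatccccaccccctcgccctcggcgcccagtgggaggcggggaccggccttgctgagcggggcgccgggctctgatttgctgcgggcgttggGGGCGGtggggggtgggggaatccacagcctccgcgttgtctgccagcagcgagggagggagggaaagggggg
Col24a1: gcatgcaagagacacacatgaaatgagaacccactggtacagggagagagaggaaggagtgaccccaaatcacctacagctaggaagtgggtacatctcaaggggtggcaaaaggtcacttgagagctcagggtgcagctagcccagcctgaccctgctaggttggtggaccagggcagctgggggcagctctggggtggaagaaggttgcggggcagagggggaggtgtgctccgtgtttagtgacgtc
Col27a1: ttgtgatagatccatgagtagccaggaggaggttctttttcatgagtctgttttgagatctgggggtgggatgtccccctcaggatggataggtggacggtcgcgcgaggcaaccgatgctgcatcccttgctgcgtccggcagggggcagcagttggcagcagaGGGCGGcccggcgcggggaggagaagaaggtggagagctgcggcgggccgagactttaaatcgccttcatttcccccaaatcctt

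Within each order the 2 windows differed. Col3a1 held 1 TATA box match and a GC content of 35.2%, while Col5a1 held 2 GC box matches and a GC content of 76.4%. Col27a1 had 1 GC box match, Col24a1 had no match to any of the motifs, and their GC contents were 59.6% and 58.0%. Of 38 windows that matched 35 collagen genes, 22 (57.9%) held a GC box match, 13 (34.2%) a CCAAT match and 5 (13.2%) a TATA box match. Over all 32851 windows of the same length the shares were 32.7%, 33.8% and 12.4%. A match is a string of letters and not a measured site.

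Basement membrane collagens come as gene pairs that start side by side on opposite strands. Col4a1 and Col4a2, which together make the common type IV network, start within overlapping first exons on chromosome 8. Col4a1 had 2234 and 1168 counts in Ogt iKO and 1050 and 1082 in control, or 131 and 75.3 CPM against 67.8 and 70.5 CPM. Both treated libraries lay above both controls, replicate 2 only just, and the log2 fold change was 0.58 (adjusted p 0.0348 by edgeR, SE 0.205). It was 0.13 (adjusted p 0.224) without Ogt iKO replicate 1, and Col4a1 was not called by DESeq2, with a robust spread, without a filter or without either control. Col4a2 had 1867 and 834 counts in Ogt iKO and 769 and 859 in control, so only replicate 1 stood outside the controls. Its log2 fold change was 0.63 (adjusted p 0.0621, SE 0.262), and 0.03 without Ogt iKO replicate 1. Col4a2 was called higher by edgeR on library totals (adjusted p 0.0312), with RLE size factors (0.0481) and with the replicate number as a block (0.00463). Its log2 fold change was 1.02 without Ogt iKO replicate 2.

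The X-linked pair Col4a5 and Col4a6, whose starts lie 1.31 kb apart, encodes chains of more restricted networks such as those of kidney and smooth muscle. Col4a5 had 484 and 182 counts in Ogt iKO and 115 and 96 in control, or 28.3 and 11.7 CPM against 7.43 and 6.26 CPM. Both treated libraries were above both controls, with a log2 fold change of 1.55 (adjusted p 0.00489, SE 0.358), 0.78 without Ogt iKO replicate 1 and 2.02 without replicate 2. With a robust spread its adjusted p was 0.161. Col4a6 had 21 and 25 counts in Ogt iKO and 1 and 5 in control. Over each group that was 46 against 6 counts, a ratio of 7.25 (95% interval 3.09 to 20.8). This interval pools the libraries of a group and covers counting error alone, not the spread between libraries. Col4a6 was called higher (log2 fold change 2.81, adjusted p 0.00213 by edgeR, SE 0.554). It reached 10 counts in the treated libraries alone, so it was tested only through the group in which it is high, as was Col23a1. The third pair, Col4a3 and Col4a4, had at most 8 counts in any library and was not tested. All 8 counts of Col4a4 came from Ogt iKO replicate 1.

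Type VI collagen is assembled from the chains of Col6a1, Col6a2 and Col6a3, and none of these genes was called in the main fit. With the replicate number as a block Col6a3 was called lower (log2 fold change -0.85, adjusted p 0.02115, edgeR). Col6a1 had 1416 counts in Ogt iKO replicate 1, 256 in replicate 2, and 752 and 914 in control, with a log2 fold change of -0.11 (adjusted p 0.861 by edgeR, SE 0.529). Col6a3 had 797 and 127 counts in Ogt iKO and 599 and 665 in control, with a log2 fold change of -0.57 (adjusted p 0.378, SE 0.540). In both, replicate 1 was above and replicate 2 far below the controls. The ratio of the treated libraries was 5.02 (95% interval 4.39 to 5.76) for Col6a1 and 5.69 (4.72 to 6.92) for Col6a3, the largest of any tested collagen. Col6a2, named after its values were seen, had 1211 and 367 counts in Ogt iKO and 541 and 695 in control. Col6a5 differed from these chains. It fell from 12.3 ± 2.22 to 7.91 ± 0.974 CPM (means ± SD, n = 2 each), with 147 and 112 counts in Ogt iKO and 215 and 165 in control (log2 fold change -0.64, adjusted p 0.0134, SE 0.181). It was not called without control replicate 1 (log2 fold change -0.45, adjusted p 0.109). Col6a4 and Col6a6 had at most 21 counts in any library.

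Fibril-associated collagens sit on the surface of other fibrils, and 2 of the 6 tested were called higher and 1 lower (all genes 33.2% and 32.0%). The median log2 fold change of the class was 0.50, or 0.10 without Ogt iKO replicate 1 and 1.04 without replicate 2. The last of these fits tested Col9a1 as well. Col22a1, a collagen of tissue junctions such as that of muscle and tendon, had 169 and 145 counts in Ogt iKO and 44 and 36 in control. It rose from 2.60 ± 0.351 to 9.62 ± 0.380 CPM (means ± SD, n = 2 each), with a log2 fold change of 1.89 (adjusted p 5.795e-05 by edgeR, SE 0.193) and treated libraries that agreed within counting error (ratio 1.06, 95% interval 0.842 to 1.33). Col12a1, which binds type I fibrils, had 1489 and 374 counts in Ogt iKO and 289 and 316 in control. Its log2 fold change was 1.51 (adjusted p 0.0202, SE 0.470), 0.30 (adjusted p 0.0522) without Ogt iKO replicate 1 and 2.12 without replicate 2. It was not called by DESeq2, with a robust spread or without control replicate 1. Col9a2, a chain of the cartilage collagen type IX, fell from 8.53 ± 0.0835 to 5.33 ± 0.154 CPM (means ± SD, n = 2 each), a log2 fold change of -0.68 (adjusted p 0.00661, SE 0.166). Its partner Col9a3 had 66 and 67 counts in Ogt iKO and 43 and 47 in control and was not called (log2 fold change 0.48, adjusted p 0.0793, or 0.0273 on library totals), so chains of 1 collagen type lay on opposite sides of 0. Col14a1 and Col16a1 were not called.

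Col18a1 encodes a proteoglycan of basement membranes whose end fragment is known as endostatin. It lies on chromosome 10 from 77052178 to 77166548, 326 kb from Col6a1. It was the most abundant collagen in the controls on the scale of CPM per kb of exon, at 60.3 and 61.8 in control replicates 1 and 2, where Col1a1 stood at 44.8 and 47.8. Its counts were 10597 and 10351 in Ogt iKO and 6551 and 6659 in control. It rose from 429 ± 7.68 to 644 ± 33.6 CPM (means ± SD, n = 2 each), with a log2 fold change of 0.59 (adjusted p 5.971e-05 by edgeR, SE 0.0604), 0.64 without Ogt iKO replicate 1 and 0.51 without replicate 2. Replicate 1 stood at 0.929 of replicate 2 (95% interval 0.904 to 0.955), the reverse of the order of type I collagen. Of all collagen counts Col18a1 made up 16.6% in Ogt iKO replicate 1, 43.5% in replicate 2, and 25.3% and 23.2% in the controls. Col1a1 made up 24.2%, 11.7%, 17.6% and 16.8% of them, so the most counted collagen was Col1a1 in Ogt iKO replicate 1 and Col18a1 in the other 3 libraries.

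Among the remaining classes, Col8a2, a chain of the hexagonal network under the corneal endothelium, had 104 and 84 counts in Ogt iKO and 42 and 28 in control (log2 fold change 1.34, adjusted p 0.00142 by edgeR, SE 0.245). Its partner Col8a1 had 767 and 156 counts in Ogt iKO and 185 and 217 in control. Replicate 1 was 4.46 times replicate 2 (95% interval 3.75 to 5.33), and Col8a1 was not called (log2 fold change 1.08, adjusted p 0.102). With the replicate number as a block Col8a1 was called higher (adjusted p 0.0209, edgeR). Col26a1 had 110 and 80 counts in Ogt iKO and 34 and 31 in control, with a log2 fold change of 1.46 (adjusted p 5.880e-04, SE 0.228). Both transmembrane genes called were low. Col23a1 rose (24 and 20 counts against 8 and 9, log2 fold change 1.28, adjusted p 0.0119), a call that DESeq2 did not make and that was lost without either control. Col13a1, a collagen of the neuromuscular junction, fell (33 and 24 counts against 54 and 42, log2 fold change -0.83, adjusted p 0.0234), a call not made by DESeq2, on library totals alone, without Ogt iKO replicate 2 or without control replicate 1. Col17a1, of the junction between skin layers, had from 24 to 28 counts in every library and a log2 fold change of 0.00. Col7a1, of the anchoring fibrils under skin, was not called.

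The 2 treated libraries were then compared with each other across all members. Of the 33 tested collagens 16 were at least 2-fold higher in Ogt iKO replicate 1 than in replicate 2, against 2.29% of all tested genes. In the reverse direction there were 0 collagens, against 0.448% of all genes, and 1 collagen differed at least 2-fold between the controls, against 3.41%. This comparison has 1 library on each side and therefore no replicate check. By class, 7 of 10 fibrillar, 2 of 4 basement membrane and 3 of 5 beaded filament genes were at least 2-fold higher in replicate 1. The median ratio over tested members was 3.145, 1.88 and 2.99 in these classes and 1.00 over all genes. Replicate 1 was above both controls and replicate 2 below both for 12 of the 33 collagens, against 2.88% of all genes: Col1a1, Col1a2, Col3a1, Col5a1, Col5a2, Col5a3, Col6a1, Col6a2, Col6a3, Col7a1, Col8a1 and Col14a1. Both treated libraries were above both controls for 14 collagens (42.3% of all genes) and below both for 3 (40.9%). Replicate 1 alone lay outside the controls for Col4a2, Col6a4 and Col16a1, 3 collagens (4.90% of all genes), and replicate 1 lay below and replicate 2 above them for 1, Col17a1 (1.53%). In 0 collagens did replicate 2 alone lie outside the controls (4.32%) or both treated libraries lie within them (3.15%).

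**Figure D3:**
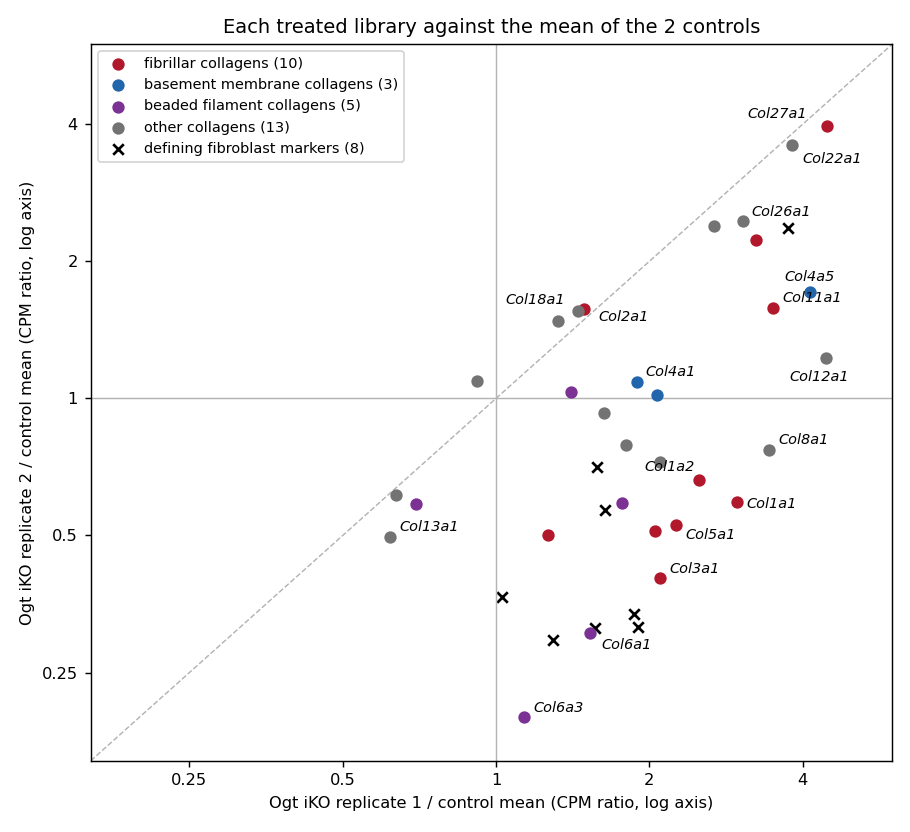
CPM of Ogt iKO replicate 1 (x axis) and replicate 2 (y axis), each divided by the mean of the 2 controls, on log axes, for the 31 tested collagens with at least 20 control counts, coloured by class, and for the 8 defining fibroblast markers (crosses); both axes share the controls, and the dashed line marks equal treated libraries. Col27a1, Col22a1, Col18a1 and Col2a1 lie near the line above 1, while Col1a1, Col1a2, Col3a1, Col5a1, Col6a1 and Col6a3 lie right of 1 and below 1, as do all crosses but that of Pdgfrb.

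The order of the fibrillar class, replicate 1 above and replicate 2 below both controls, was also that of 16 of the 32 fibroblast markers, against 2.88% of all genes, and of 6 of the 8 defining ones. Another 12 markers, among them Sparc, Fbln1 and Twist1, were above both controls in both treated libraries, where 42.3% of all genes were. Of the 32 markers 17 were at least 2-fold higher in Ogt iKO replicate 1 than in replicate 2 (all genes 2.29%), and 7 of the 8 defining ones were. Postn, a matrix protein, had 1954 counts in Ogt iKO replicate 1, 319 in replicate 2, and 997 and 889 in control. Dcn, a small proteoglycan that binds type I fibrils, had 782 and 162 counts in Ogt iKO and 492 and 598 in control, and Prrx1, a mesenchymal transcription factor, had 434 and 65 against 195 and 216. Pdgfrb, a growth factor receptor, was above both controls in both treated libraries, with 428 and 245 counts against 85 and 121 and a log2 fold change of 1.61 (adjusted p 5.329e-04, edgeR). The whole list summed to 4992 CPM in Ogt iKO replicate 1, 3087 in replicate 2, and 2946 and 3123 in control, so replicate 2 lay between the controls in this sum. With all libraries 12 of the 32 were called higher and 1 lower (all genes 33.2% and 32.0%), with a median log2 fold change of 0.28. Without Ogt iKO replicate 1, 12 were called higher and 17 lower (median -0.49), and without replicate 2, 26 higher and 1 lower (median 0.81). The 4 with the smallest adjusted p were Ccn2 (log2 fold change 2.23), Ccn1 (2.30), Cald1 (1.74) and Tagln (2.60), genes of contractile and growth responses that other cell types also express, and in them the treated libraries stood at a ratio of 1.02 to 1.16.

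Set against the summed counts of the 8 defining fibroblast markers in the same library, fibrillar collagens had 8.84 and 8.26 counts per marker count in Ogt iKO replicates 1 and 2, and 5.97 and 6.57 in the controls. The spread between the treated libraries was thus far smaller on this scale than the 4.16-fold spread of the class in CPM (95% interval 4.07 to 4.26). That depends on the markers used. The 8 defining ones stood at 3.89 between Ogt iKO replicates 1 and 2, but all 32 fibroblast markers at 1.62 (95% interval 1.60 to 1.64). Scaling to the whole list was not done. Type VI genes had 0.767 and 0.805 counts per marker count in Ogt iKO and 0.901 and 0.9895 in control. Col18a1 behaved otherwise, with 2.26 and 9.45 in Ogt iKO and 2.76 and 2.68 in control, and so did Col2a1, with 0.170 and 0.699 against 0.211 and 0.187. Col12a1 had 0.317 and 0.342 in Ogt iKO and 0.122 and 0.127 in control, and Col8a1 had 0.163 and 0.1425 against 0.0781 and 0.0874. On this scale both treated libraries were above both controls for Col12a1 and Col8a1. So were they for Col1a1 (3.29 and 2.54 against 1.92 and 1.94) and Col1a2 (2.02 and 2.08 against 1.39 and 1.42). The same held for the fibrillar, basement membrane, fibril-associated and short-chain network classes and that of remaining collagens. For Col3a1 replicate 2 lay between the controls, and type VI genes were below both. Multiplexin and transmembrane collagens were below both in replicate 1 and above both in replicate 2. Without Thy1 among the markers, fibrillar collagens had 9.74 and 9.45 counts per marker count in Ogt iKO versus 6.65 and 7.27 in control, and type VI genes 0.846 and 0.921 versus 1.003 and 1.095. Col18a1 then had 2.49 and 10.82 versus 3.08 and 2.97, and Col2a1 had 0.187 and 0.799 versus 0.235 and 0.207. Col12a1 had 0.3499 and 0.391 versus 0.136 and 0.141, and Col8a1 had 0.180 and 0.163 versus 0.0869 and 0.0968, so the order of the groups was as with Thy1 for each of these. The part of fibroblast RNA in any of these levels was not tested.

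Ratios between chains were taken per kb of exon, since longer transcripts give more reads. Col1a1 stood at 3.09 and 2.32 times Col1a2 in Ogt iKO replicates 1 and 2, and at 2.62 and 2.58 times in the controls. The chains of type V kept a ratio of Col5a1 to Col5a2 between 1.84 and 2.20 in all 4 libraries. Col4a1 to Col4a2 lay between 1.06 and 1.24. Col6a1 to Col6a2 was 1.33 in Ogt iKO replicate 2, against 2.22 in replicate 1 and 2.64 and 2.50 in the controls. Col18a1 to Col1a1 moved most, from 0.641 in Ogt iKO replicate 1 to 3.47 in replicate 2, with 1.35 and 1.29 in the controls.

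**Figure D4:**
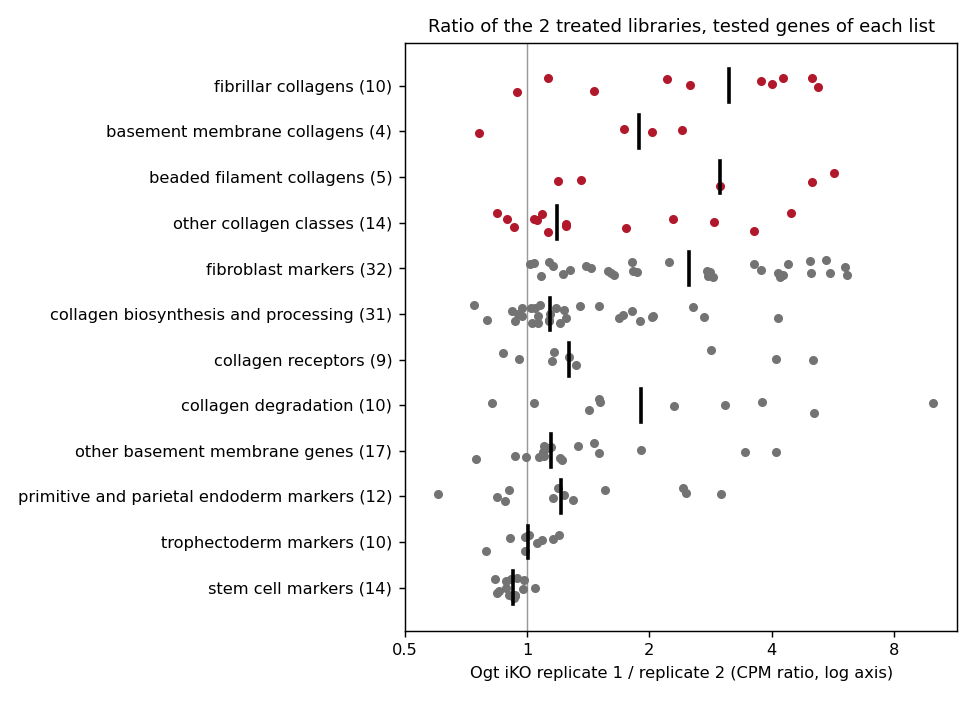
Ratio of CPM in Ogt iKO replicate 1 to that in replicate 2 (log axis), with 1 point per tested gene, for collagen classes (red) and other gene lists (grey); the number of genes is in brackets and the black bar is the median. Fibrillar and beaded filament collagens and the fibroblast markers have medians of 3.145, 2.99 and 2.51, while stem cell and trophectoderm markers have medians of 0.921 and 1.00.

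Collagen chains are hydroxylated, folded, cut and cross-linked by a set of dedicated enzymes, and most of these did not follow the order of type I collagen. Of the 31 tested genes of biosynthesis and processing, 17 were called higher and 5 lower (all genes 33.2% and 32.0%), with a median log2 fold change of 0.63 and a median ratio between the treated libraries of 1.14. The median was 0.24 without Ogt iKO replicate 1, with 14 higher and 6 lower, and 0.84 without replicate 2, with 21 higher and 5 lower. The lysyl hydroxylases Plod1 (1672 and 1426 counts in Ogt iKO versus 567 and 627 in control) and Plod2 (2453 and 2289 against 1164 and 1221) rose by 1.29 and 0.91 on the log2 scale. The prolyl hydroxylase subunit P4ha1 had 1168 and 1011 counts against 531 and 556 (log2 fold change 0.92), and Colgalt1, which adds galactose to hydroxylysine, fell, with 1340 and 1074 counts against 2037 and 2001 (log2 fold change -0.83). These 4 had the smallest adjusted p values of the list, from 5.764e-06 to 2.636e-05 (edgeR), and in each both treated libraries were on the same side of both controls. Of the list, 5 genes were at least 2-fold higher in Ogt iKO replicate 1 than in replicate 2, against 2.29% of all genes. The cross-linking enzyme Lox was among them, with 2550 and 559 counts against 509 and 383 and a log2 fold change of 1.68 (adjusted p 0.0193), which was 0.32 without Ogt iKO replicate 1 and 2.34 without replicate 2. Lox was not called by DESeq2 (adjusted p 0.125), with a robust spread (0.282) or without control replicate 2 (0.0708). Lox and Loxl1 stand on the fibroblast list as well, and Lox, Ddr2 and Ctsk are described here although the rule for names did not include them, after their values were seen.

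Of 9 tested collagen receptors 5 were called higher and 0 lower (all genes 33.2% and 32.0%), with a median log2 fold change of 0.57. Without Ogt iKO replicate 1, 4 were called higher and 2 lower, and without replicate 2, 7 higher and 0 lower. The receptor Mrc2, which takes up collagen fragments, had 1836 and 1316 counts in Ogt iKO and 484 and 533 in control (log2 fold change 1.54, adjusted p 1.367e-05, edgeR). The receptor kinase Ddr1 had 1286 and 1222 counts against 722 and 736 (0.70, adjusted p 6.239e-05), and the shared integrin chain Itgb1 had 9217 and 7185 against 5507 and 5227 (0.53, adjusted p 4.174e-04). Lair1 had 16 and 11 counts against 3 and 3 and was also called higher, but not by DESeq2 (adjusted p 0.131) or without either control (0.0567 and 0.0579), and it reached 10 counts in the treated libraries alone. Ddr2, the receptor kinase for fibrillar collagens, had 295 and 53 counts in Ogt iKO and 157 and 158 in control, the order of type I collagen, and was not called.

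Genes of collagen breakdown numbered 10 tested, with 3 called higher and 0 lower (all genes 33.2% and 32.0%) and a median ratio between the treated libraries of 1.91. Their median log2 fold change of 0.33 was -0.50 without Ogt iKO replicate 1, with 3 higher and 6 lower, and 0.86 without replicate 2, with 7 higher and 0 lower. Those called were the membrane proteases Mmp15 (log2 fold change 1.42) and Mmp16 (1.39) and the inhibitor Timp3 (1.64), whose counts were 1412 and 416 in Ogt iKO versus 295 and 247. Timp3 stood at 0.61 without Ogt iKO replicate 1 and 2.21 without replicate 2, and it was not called by DESeq2 (adjusted p 0.0608) or with a robust spread (0.221). Mmp16 was not called by DESeq2 either (0.0563). The gene with the next smallest adjusted p, Mmp14, had a log2 fold change of 0.35 (adjusted p 0.0508) and was called higher on library totals, with RLE size factors, with the replicate number as a block (adjusted p 0.00557) and without Ogt iKO replicate 2. Ctsk, a protease that cuts fibrillar collagen, had 179 and 32 counts in Ogt iKO and 93 and 64 in control. Of 17 other basement membrane genes 9 were called higher and 3 lower (all genes 33.2% and 32.0%), with a median log2 fold change of 0.52. The median was 0.28 without Ogt iKO replicate 1, with 9 higher and 5 lower, and 0.90 without replicate 2, with 12 higher and 3 lower. The laminin chains Lamb1 (6172 and 4601 counts against 2587 and 2555) and Lama5 (8392 and 6933 against 3718 and 4266) rose by 0.98 and 0.86 on the log2 scale, and the laminin chain Lama3 (512 and 622 counts against 1197 and 1340) fell by 1.24. The median ratio between the treated libraries was 1.14 for this list, against 1.88 for type IV collagens.

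Markers of other cells that make collagen were measured beside these. Primitive and parietal endoderm, which secretes type IV collagen, had 6 of 12 tested markers called higher and 0 lower (all genes 33.2% and 32.0%). Without Ogt iKO replicate 1, 6 were called higher and 1 lower, and without replicate 2, 10 higher and 0 lower. Gata4 had 129 and 101 counts in Ogt iKO and 44 and 51 in control, Sox17 had 19 and 14 against 1 and 2, Gata6 had 48 and 18 against 22 and 9, and Sox7 had 8 and 12 against 13 and 14. Gata4 and Sox17 were called higher, as were Dab2 (log2 fold change 2.37), Fst (2.19), Foxa2 (2.64) and Plat (1.10), while Ttr was at 0 in every library. Sox17 and Foxa2 reached 10 counts in the treated libraries alone. The summed level of the list was 158 and 134 CPM in Ogt iKO and 51.5 and 42.6 CPM in control. Of 6 tested cartilage markers 2 were called higher and 1 lower (all genes 33.2% and 32.0%), and with either treated library left out 1 was called higher. Acan, the large cartilage proteoglycan, fell (265 and 235 counts against 368 and 398, log2 fold change -0.70), Hapln1 (16 and 10 against 2 and 1) and Comp (28 and 38 against 12 and 18) rose, Sox9 had 39 and 36 against 20 and 28, and Matn1 had at most 6 counts. Comp was not called without Ogt iKO replicate 2, without control replicate 1 or by DESeq2, and Hapln1 was not called by DESeq2 and too low to test without Ogt iKO replicate 1. Hapln1 reached 10 counts in the treated libraries alone, as did the endothelial gene Cdh5. The cartilage list summed to 29.7 and 30.3 CPM in Ogt iKO and 33.6 and 38.1 CPM in control.

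Of 10 tested trophectoderm markers 7 were called higher and 1 lower (all genes 33.2% and 32.0%), with summed levels of 215 and 191 CPM in Ogt iKO and 138 and 137 CPM in control. Gata3 (log2 fold change 2.36), Esx1 (2.45) and Krt7 (2.93) rose and Tfap2c (-2.28) fell, Hand1 rose by 1.50 (not called by DESeq2 or without control replicate 2), Cdx2 was not called, and Elf5 was at 0 in all libraries but Ogt iKO replicate 1, where it had 2 counts. Endothelial markers, of which 3 of 8 were called higher and 2 lower (all genes 33.2% and 32.0%, shares near these), summed to 94.4 and 109.6 CPM in Ogt iKO and 108 and 118 CPM in control. Tek (2.00 on the log2 scale), Tie1 (2.24) and Cdh5 (1.69, not called by DESeq2, without Ogt iKO replicate 1 or without either control) rose, Pecam1 (-0.89) and Egfl7 (-0.57) fell, and Emcn had at most 1 count. The part of endoderm, cartilage, trophectoderm or endothelial cells in the collagen levels was not tested.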

How the data were processed

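The authors deposited a table of raw counts per gene symbol for each of the 4 libraries, with no normalization and 0 rows that name no gene. Libraries were made with a stranded mRNA kit, per the labels' protocols. STAR, Picard and the build mm10 are named in the submitters' processing notes, while versions, annotation, the strand counted and the treatment of reads mapped to several loci are not given in the sources used here. Counts of overlapping genes are therefore uncertain, but exons of other genes covered at most 6.07% of any collagen's exon length (Col9a3). Positions and exon lengths came from GENCODE M21 and promoters from RefSeq, both on GRCm38, the assembly mm10 names.

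Counts were tested with edgeR 4.0.16 in R 4.3.3 (glmQLFTest, TMM, filterByExpr, all 4 libraries, no covariate). The same fit was run on simulated counts in which few genes changed and all had the same spread. That check does not cover these data, in which 65.3% of tested genes were called and many collagens differed between the treated libraries. P values were adjusted by the Benjamini-Hochberg method across 14525 genes. An exact test of a single value of 2 libraries against 2 cannot give a p under 0.333. Ratios between libraries carry exact binomial 95% intervals, and a count of 0 allows up to 3 counts. The text names each called collagen, each fibrillar and type IV collagen with at least 10 counts in a library, the 6 with the largest ratio between treated libraries (at least 20 counts), up to 4 genes of each other list by adjusted p, and the defining markers, except 1 basement membrane gene that is not reported here. Members, lists and rules were chosen with earlier results of these data known. Alternatives were RLE size factors, library totals, DESeq2 1.42.0, 2 other filters, a robust spread, the replicate number as a block and leaving out each library.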

Additional observations from a re-analysis of the deposited data

How the results depend on the processing

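The count of collagens called higher, 13, lay between 9 (DESeq2 and robust spread) and 15 (library totals and replicate block) in the settings that kept all libraries, and that of collagens called lower, 3, between 2 and 4. With 1 library left out the first ran from 9 to 26 and the second from 1 to 12, with 26 without Ogt iKO replicate 2, 12 without Ogt iKO replicate 1 and 1 without control replicate 1. The median log2 fold change of the collagens, 0.58, lay between 0.43 and 0.75 with all libraries and between -0.04 and 1.02 with 1 left out. Library totals shifted the median of all genes from 0.02 to 0.19. Between 34 and 37 collagens were tested with 1 library left out, and 44 without a filter.

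With 1 library left out, log2 fold changes ran from -0.75 to 1.55 for Col1a1, from -0.59 to 1.30 for Col1a2, from -1.31 to 1.04 for Col3a1, from -0.92 to 1.15 for Col5a1, from -0.96 to 1.01 for Col5a2 and from -0.99 to 0.31 for Col5a3, whose value without control replicate 2 was 0.03. Each lowest value is that without Ogt iKO replicate 1 and each highest that without replicate 2. The ratio of the treated libraries for fibrillar collagens, 4.16, was 4.66 when scaled to the stem cell markers, 3.77 without Col1a1, and 3.145 as the median of single genes. On library totals or RLE size factors it stayed within its counting interval. Per count of the defining fibroblast markers it was 1.07, and 1.03 without Thy1, an alternative chosen after seeing the data.

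No pairing by replicate number was seen: the difference between replicates 1 and 2 correlated between the groups at 0.0859 across genes. That alone does not show that samples of the same number were handled apart. The block gave 15 higher and 4 lower collagens, called Col4a2 and Col8a1 higher (adjusted p 0.00463 and 0.0209, edgeR) and Col6a3 lower (0.02115), and turned Col3a1 to -0.07. Genes of few counts, such as Col4a6, Col6a4, Col23a1 and Col24a1, were limited by counting error, and the type I, III and V genes and Col6a1, Col6a2 and Col6a3 by the spread between the treated libraries.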

Other observations

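Genes outside all lists were ranked by how near their profile over the 4 libraries came to that of the summed fibrillar collagens, a choice made after the data were seen. The measure was the distance between centred log2 CPM values over 4 libraries, for 9592 tested genes with at least 200 counts in some library. The nearest was Lrrc32, which encodes a surface protein that holds latent TGF-beta, with 278 counts in Ogt iKO replicate 1, 67 in replicate 2 and 109 and 101 in control. Cyp1b1 followed, with 443 and 120 counts in Ogt iKO and 185 and 183 in control, and Cd248, a surface protein of stromal cells, with 408 and 79 against 102 and 144. Others among the nearest 12 were Ccn4, Cav1, Fndc1, Inhba, Tgfbr2, Osmr, Nrp1, Vcam1 and Synpo. In all 12, Ogt iKO replicate 1 was the highest library and replicate 2 the lowest, as the choice of the measure makes likely.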
